A study of Mus musculus with 12 samples.

Results

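Proteasome subunit genes were defined as the genes of the deposited filtered table of RPM values (reads scaled to the total of their library) whose symbol is Psm followed by a letter from a to g, a number and at most 1 further letter. The pattern matched 48 of its 17311 genes. By textbook role, 8 encode alpha-ring subunits, 3 the constitutive catalytic beta subunits, 3 their immunoproteasome counterparts and 4 other beta subunits. A further 6 encode ATPases and 11 non-ATPase subunits of the 19S regulatory particle, 7 assembly chaperones, 5 activator subunits and 1 an inhibitor. Psmb11, the thymus-specific catalytic subunit, also fits the pattern, but it had 0 counts in all 12 libraries and is absent from the RPM table. Each of the 48 is a protein-coding gene in the GENCODE mouse annotation.

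The proteasome is a barrel of alpha and beta rings, capped by regulatory particles, that degrades ubiquitin-tagged proteins. The proteolytic sites lie on the beta subunits encoded by Psmb5, Psmb6 and Psmb7. In immune cells, and in other cells exposed to interferon, newly built particles take up the products of Psmb8, Psmb9 and Psmb10 in their place, which changes the peptides made for MHC class I. Standard subunit genes are known to rise together when proteolytic capacity falls short, through the transcription factor encoded by Nfe2l1. NRF2 is a further known activator of several of them.

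RNA of 12 mouse libraries in 5 groups was sequenced. Peritumoral hepatocytes (3 libraries) came from livers around tumours that had grown for 8 weeks after hydrodynamic injection of plasmids for SB11 (1 µg), myc-NICD (20 µg) and myr-HA-Akt (4 µg), and untreated hepatocytes (3 libraries) were set against them. Both hepatocyte groups carry the genotype label Lats1tm1.1Jfm/RjoJ; Lats2tm1.1Jfm/RjoJ, a floxed line that the titles call WT. Whether Cre was present is not stated. Livers of CD-1 IGS mice were taken 24 h (2 libraries) and 48 h (2 libraries) after 1 intraperitoneal injection of the hepatotoxin thioacetamide (TAA), with 2 control livers as their reference. Every group is labelled 8 weeks old, although tumours were started at 8 weeks and left to grow, which leaves the age of peritumoral mice uncertain. Percoll-purified hepatocytes are the labelled material of all 12 libraries, but the design text speaks of livers for the thioacetamide experiment, and that word is used here. Hydrodynamic delivery is known to reach only some of the hepatocytes.

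Total counts lay between 16228747 and 18522324 in hepatocyte libraries and between 9640845 and 13692235 in liver libraries. Hepatocyte markers summed to between 81360 and 184800 RPM in the 12 libraries. Markers of other cell types moved with the groups. Of 14 macrophage markers 12 were called higher in peritumoral hepatocytes, with sums of 1938, 3290 and 5332 RPM in peritumoral libraries, against 488, 418 and 277 RPM in untreated libraries. Biliary markers summed to 1087, 10230 and 758 RPM in peritumoral libraries, against 34.3, 34.5 and 50.8 RPM in untreated libraries, so peritumoral library 2 stood apart. In the livers macrophage markers summed to 645 and 489 RPM at 24 h, 1867 and 1169 RPM at 48 h, and 182 and 79.0 RPM in controls. Of 10 hepatocyte markers 8 were called lower at 24 h and 7 at 48 h with TMM scaling, and 1 in peritumoral hepatocytes. In control livers 9 of 10 neutrophil markers and 5 of 14 lymphocyte markers had 0 counts. Replicates are separate libraries in the labels, with no word on whether each is a different animal. The p-values therefore cover only the spread between libraries, which may be technical. In tissue RNA, fewer cells of a type and less RNA per cell cannot be told apart.

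The promoters of a constitutive and an immunoproteasome gene from each of 2 catalytic pairs are shown because the results below turn on these pairs. Sequences are from RefSeq (GRCm38.p6) and run 5′ to 3′ over the 150 bases before the RefSeq start site. Psmb5 lies at chr14:54617996-54618145 on the minus strand, Psmb6 at chr11:70525207-70525356 on the plus strand, Psmb8 at chr17:34198045-34198194 on the plus strand and Psmb9 at chr17:34187331-34187480 on the minus strand. In the GENCODE annotation, where Psmb8 spans 34197721 to 34201454 and Psmb9 34181987 to 34187764 of chromosome 17, both of their windows lie inside the gene, downstream of its outermost start. The Psmb6 window lies upstream of its gene (chromosome 11, 70525367 to 70527858), and the Psmb5 window reaches across the start of its gene at 54618022 on chromosome 14. Capitals mark matches to TGACNNNGC, the core letters of the antioxidant response element that NRF2 and related factors bind, in Psmb5 and Psmb6, and to TTCNNNGAA, the core letters of the interferon-gamma-activated site, in Psmb8.
Psmb5: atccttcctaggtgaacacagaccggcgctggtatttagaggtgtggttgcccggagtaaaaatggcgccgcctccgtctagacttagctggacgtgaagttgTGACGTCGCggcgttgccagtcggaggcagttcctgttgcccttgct
Psmb6: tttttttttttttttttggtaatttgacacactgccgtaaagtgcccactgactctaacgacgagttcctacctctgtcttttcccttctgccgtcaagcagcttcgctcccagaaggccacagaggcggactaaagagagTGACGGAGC
Psmb8: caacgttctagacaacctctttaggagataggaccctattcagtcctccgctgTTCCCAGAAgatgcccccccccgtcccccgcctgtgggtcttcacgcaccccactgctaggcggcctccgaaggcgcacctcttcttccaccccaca
Psmb9: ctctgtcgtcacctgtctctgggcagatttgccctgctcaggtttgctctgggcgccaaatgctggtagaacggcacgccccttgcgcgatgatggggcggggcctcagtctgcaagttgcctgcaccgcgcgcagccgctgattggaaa

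Promoter entries were found for 40 of the 48 genes, 43 promoters in all, and each was searched on both strands over the 250 bases before the start site. TGACNNNGC was found in 5 genes, Psmb5, Psmb6, Psmc6, Psmd12 and Psmd9, and in 10.2% of all 32851 mouse promoters. The match lay at bases -47 to -39 in Psmb5 and at -9 to -1 in Psmb6. TTCNNNGAA was found in Psmb8 (-97 to -89) and Psmg1, and in 7.02% of all promoters. The core of the interferon-stimulated response element (GAAA, any 2 bases, GAAA) was found in Psmb3, Psmd4 and Psmd9, and in 2.98% of all promoters. The matches did not overlap each other, and a match describes the sequence only.

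All 48 genes passed the filter on low counts in each fit. Levels per length (RPM per kb of the principal mRNA) in untreated hepatocytes were highest for Psmb6, at 168 ± 30.7 (SD, n = 3), Psmb4, at 141 ± 34.7, and Psmd8, a lid subunit, at 133 ± 41.8. The first of these 3 exceeded the third by less than the SD of the third. The lowest were Psma8, an alpha subunit known for its role in the testis, at 0.901 ± 0.284, and Psme2b, a copy of the activator gene Psme2, at 2.01 ± 0.403. In control livers Psmb6 again ranked first, at 82.3 ± 12 RPM per kb (SD, n = 2), and Psma8 last, at 0.741 ± 0.396. Levels of some genes are uncertain because their sequence is shared. Of the 50-base stretches of Psmb5, 54.1% occur in another annotated gene, chiefly Gm3375, and the shares were 69.3% for Psme2b, 49.96% for Psma5 and 28.3% for Psme2. Exons of 4 genes overlap a gene on the opposite strand over more than 10% of their length, Psmd9 over 25.5%, Psmb8 over 14.7%, Psmb7 over 11.8% (Nek6) and Psmd13 over 10.1%, and no source used here says whether counting used strand.

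Peritumoral hepatocytes had lower transcript levels of the standard proteasome than untreated hepatocytes, while the immunoproteasome subunit Psmb9 was higher. By edgeR's quasi-likelihood test with TMM scaling, which sets libraries level on the bulk of their genes, 29 of the 48 genes were lower, 1 was higher and 18 did not pass an adjusted p of 0.05. Over all 13442 genes tested 9.85% were lower, 18.7% higher and 28.5% called in either direction. The median log2 fold change was -0.63 for the 48 genes and -0.02 for all genes tested. In TMM-scaled CPM (counts scaled to the library total times its TMM factor) the 3 peritumoral libraries lay below all 3 untreated libraries for 40 genes and above them for 2, against 24.5% and 25% of all genes. The number of calls depended on which libraries entered the test. No gene was called lower without untreated library 1 and 1, Psmd9, without untreated library 2, with medians of -0.54 and -0.65. Lower calls over all genes fell to 0.372% and 0.672% in the same fits, so the loss was general. Without peritumoral library 2 or 3 the number was 6 or 4, where 4.45% or 2.61% of all genes were lower, with medians of -0.58 and -0.64.

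**Figure D1:**
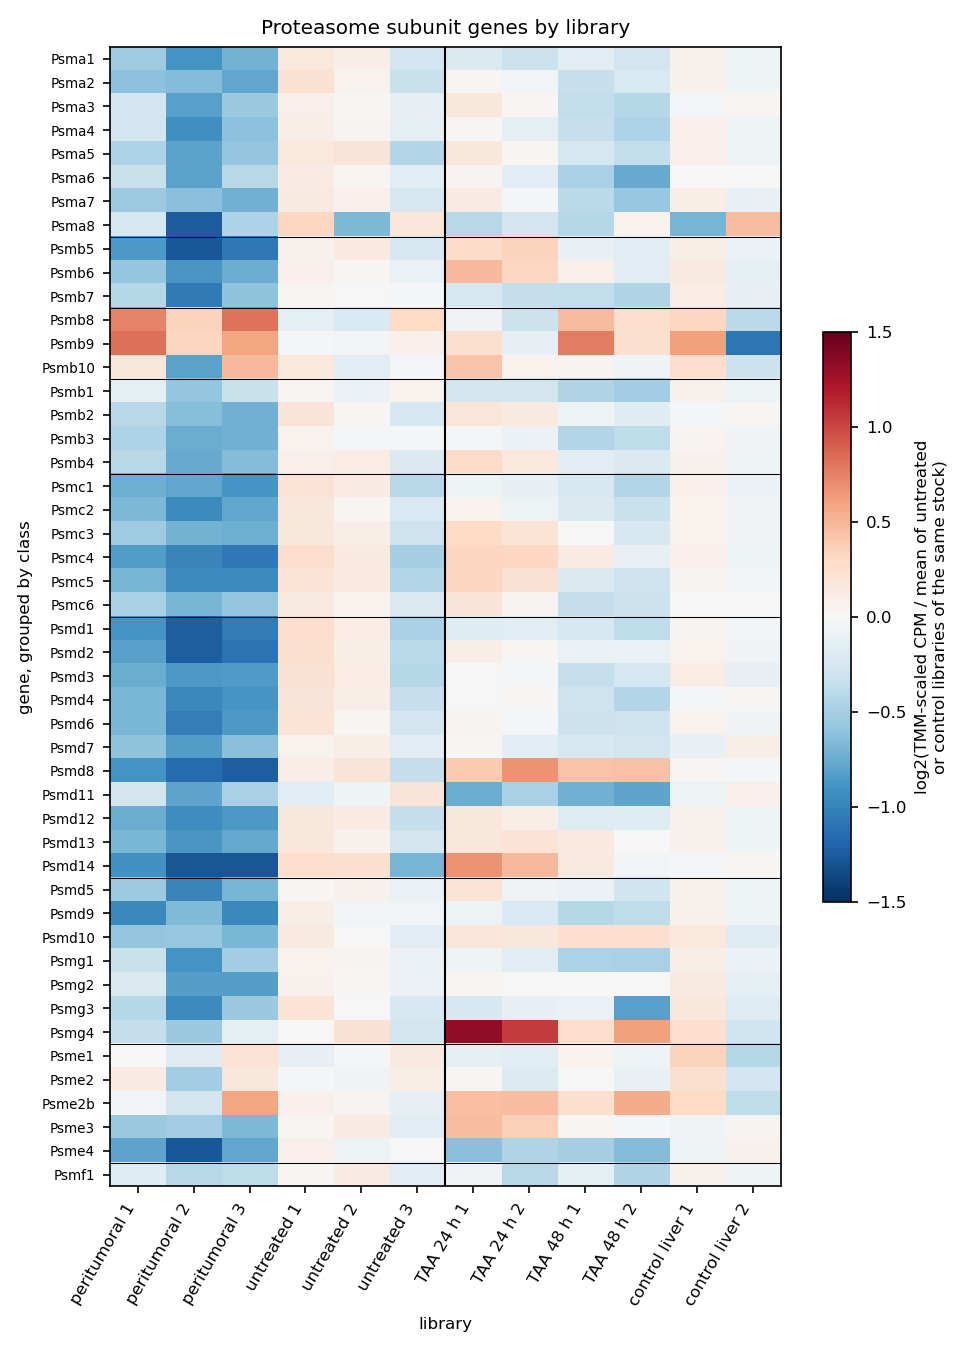
Log2 ratio of TMM-scaled CPM in each library to the mean of the untreated hepatocytes (first 6 columns) or control livers (last 6 columns), for 48 proteasome genes grouped by class. Peritumoral columns are blue in every class except the immunoproteasome subunits and the activators Psme1, Psme2 and Psme2b, and untreated library 3 is the lowest of the 3 untreated libraries for 39 genes.

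Untreated library 3 differed from the other untreated libraries. Transcripts of the 32 standard 20S and 19S genes summed to 2796, 2925 and 2353 RPM in peritumoral hepatocytes, against 4561, 4540 and 2727 RPM in untreated hepatocytes. On that scale the groups overlapped, since untreated library 3 lay below 2 of the 3 peritumoral libraries. With TMM scaling the sums were 2777, 2248 and 2428 CPM in peritumoral hepatocytes, against 4681, 4449 and 3481 CPM in untreated hepatocytes, with no overlap. The TMM factor of untreated library 3 was 0.784, the lowest of the 6. Without that library 30 genes were called lower, where 9.55% of all genes were. With library totals alone, with no TMM factor, 1 of 48 was (2.08%), near the 1.35% of all genes. Under library totals the median of the 48 genes was -0.42, against 0.23 for all genes tested.

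**Figure D2:**
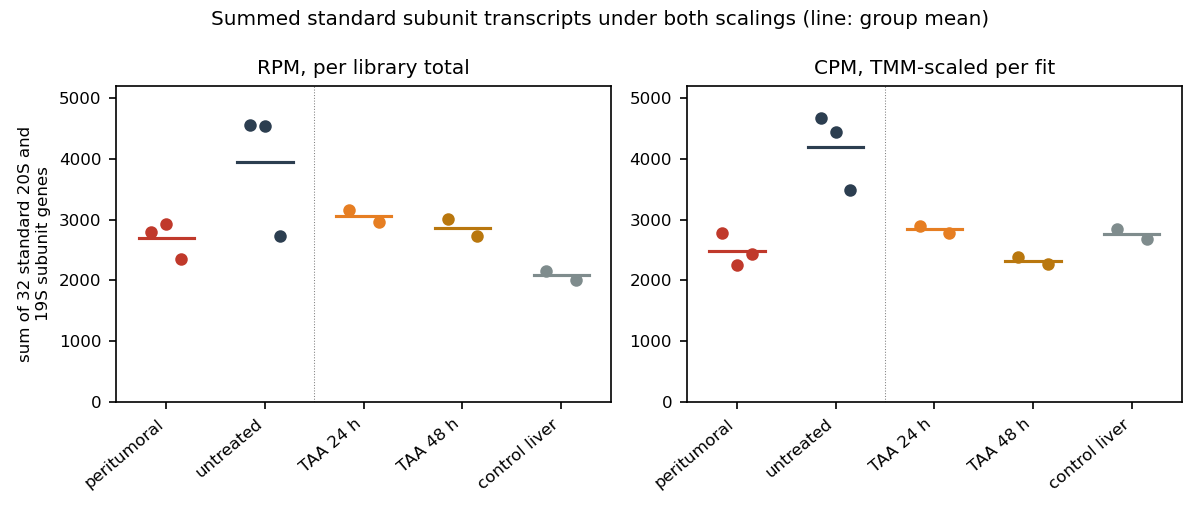
Summed level of the 32 standard 20S and 19S subunit genes in each library, as RPM (left) and as TMM-scaled CPM (right); points are libraries and lines group means. Untreated library 3, at 2727 RPM and 3481 CPM, joins the peritumoral range in RPM but not in CPM, and control livers lie below the thioacetamide livers in RPM but not in CPM.

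The 19S regulatory particle recognises and unfolds ubiquitin-tagged proteins. All 6 of its ATPase genes were lower in peritumoral hepatocytes, by a median log2 fold change of -0.80. Psmc4 had 88.9, 80.4 and 75.8 CPM in peritumoral hepatocytes, against 191, 175 and 112 CPM in untreated hepatocytes. All peritumoral libraries lay below all untreated libraries, and untreated library 3 was the lowest of its group. The log2 fold change was -0.96 ± 0.23 (SE; edgeR, adjusted p = 0.0249) for Psmc4 and -0.80 ± 0.18 (adjusted p = 0.0201) for Psmc2, another ATPase of the ring.

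Of the 11 non-ATPase genes 10 were lower. Psmd8 had 117, 97.8 and 92.4 CPM in peritumoral hepatocytes, against 234, 250 and 169 CPM in untreated hepatocytes, and the groups did not overlap. Its log2 fold change was -1.09 ± 0.22 (edgeR, adjusted p = 0.0142). Psmd14, which encodes the deubiquitinase of the lid, had 57.7, 44.7 and 44.7 CPM in peritumoral hepatocytes, against 130, 128 and 67.0 CPM in untreated hepatocytes. The groups did not overlap, and untreated library 3 stood close to the peritumoral range. The log2 fold change of Psmd14 was -1.15 ± 0.28 (edgeR, adjusted p = 0.0272), the lowest of the 48 genes. Psmd6, a lid subunit, was lower by -0.85 ± 0.19 (edgeR, adjusted p = 0.0190). Psmd11, a lid subunit, was the 1 gene of the class that did not pass, at -0.51 ± 0.19 (edgeR, adjusted p = 0.0936).

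Within the 20S core the alpha ring, which forms the gate of the barrel, had 3 lower genes of 8. Psma1 was lower by -0.71 ± 0.19 and Psma7 by -0.63 ± 0.17 (edgeR, adjusted p = 0.0339 and 0.0336), and Psma2 was the other. The log2 fold changes of the 8 ran from -0.71 to -0.51. An unadjusted p under 0.05 was found for 7, and the share of all genes under it was not counted. Of the 4 non-catalytic beta genes Psmb3, at -0.64 ± 0.14 (edgeR, adjusted p = 0.0204), and Psmb2, at -0.59 ± 0.17 (adjusted p = 0.0460), were lower. Psmb4, at -0.60 ± 0.18, just missed the threshold (edgeR, adjusted p = 0.0507).

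All 3 constitutive catalytic genes were lower in peritumoral hepatocytes. Psmb5, the chymotrypsin-like subunit, had 9.45, 7.09 and 8.15 CPM in peritumoral hepatocytes, against 17.9, 19.01 and 14.6 CPM in untreated hepatocytes. The groups did not overlap, and the log2 fold change was -1.06 ± 0.21 (edgeR, adjusted p = 0.0137). Psmb6, the caspase-like subunit, had 95.9, 78.4 and 85.9 CPM in peritumoral hepatocytes, against 152, 145 and 135 CPM in untreated hepatocytes, again without overlap (log2 fold change -0.73 ± 0.16, edgeR, adjusted p = 0.0182). Psmb7, the trypsin-like subunit, had 110, 70.8 and 96.7 CPM in peritumoral hepatocytes, against 150, 147 and 145 CPM in untreated hepatocytes. These groups did not overlap either, with peritumoral library 2 the lowest (log2 fold change -0.67 ± 0.20, edgeR, adjusted p = 0.0453). The call of Psmb7 was lost in 12 of 15 alternatives, and with library totals in place of TMM factors none of the 3 passed.

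Of the 3 immunoproteasome genes 1 was called higher and none lower. Psmb8, the counterpart of Psmb5, had 53.5, 40.4 and 56.1 CPM in peritumoral hepatocytes, against 29.2, 27.3 and 39.5 CPM in untreated hepatocytes. The groups did not overlap, although peritumoral library 2 and untreated library 3 were within 1 CPM of each other. The log2 fold change of 0.64 ± 0.21 did not pass (edgeR, adjusted p = 0.0589), and it passed in 8 of 15 alternatives. Psmb9, the counterpart of Psmb6, had 31.8, 22.4 and 27.1 CPM in peritumoral hepatocytes, against 17.6, 17.4 and 18.9 CPM in untreated hepatocytes. All peritumoral libraries were higher, the log2 fold change was 0.59 ± 0.17 (edgeR, adjusted p = 0.0453), and the call was lost in 8 of 15 alternatives, among them leaving out any library other than peritumoral library 2. Psmb10, the counterpart of Psmb7, had 31.5, 16.0 and 39.2 CPM in peritumoral hepatocytes, against 31.1, 25.0 and 27.7 CPM in untreated hepatocytes. These groups overlapped, with peritumoral library 2 the lowest of all 6 (log2 fold change 0.05 ± 0.32, edgeR, adjusted p = 0.929).

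A ratio of both genes of a pair within a library needs no scaling between libraries. The log2 ratio of Psmb8 to Psmb5 counts was 2.50, 2.51 and 2.78 in peritumoral hepatocytes, against 0.71, 0.52 and 1.44 in untreated hepatocytes. For Psmb9 to Psmb6 it was -1.59, -1.80 and -1.67 in peritumoral hepatocytes, against -3.10, -3.06 and -2.83 in untreated hepatocytes. For Psmb10 to Psmb7 it was -1.80, -2.14 and -1.30 in peritumoral hepatocytes, against -2.27, -2.56 and -2.39 in untreated hepatocytes. In each pair every peritumoral library was above every untreated library, including untreated library 3. The mean differences were 1.71, 1.31 and 0.66. Each had an exact two-sided permutation p of 0.1, the smallest that 3 against 3 libraries can give, and 0.3 after adjustment over the 9 ratio tests made, so none could pass 0.05.

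**Figure D3:**
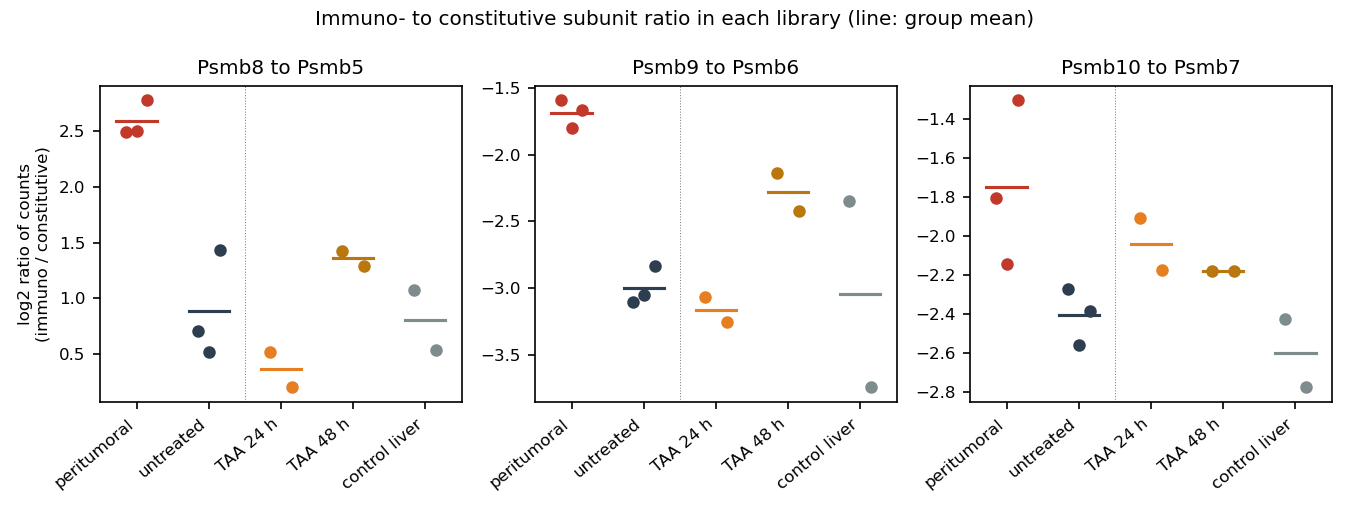
Log2 ratio of counts of each immunoproteasome gene to its constitutive counterpart in the 12 libraries, with group means as lines; the axes differ between pairs. Peritumoral libraries lie above all untreated libraries in each pair, and the control livers are far apart for Psmb9 to Psmb6, at -2.35 and -3.75.

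Summed per length over the 3 pairs, immunoproteasome genes made up 26.3%, 24.3% and 29.7% of catalytic transcripts in peritumoral hepatocytes, against 13.9%, 12.9% and 16.1% in untreated hepatocytes. Without the pair of Psmb8 and Psmb5, whose counts share sequence with other genes, the shares were 18.1%, 15.3% and 20.7% in peritumoral hepatocytes, against 10.3%, 9.38% and 10.7% in untreated hepatocytes. These shares still include Psmb7, with its overlap of Nek6. The groups did not overlap in either form. Macrophage and antigen-presenting-cell markers, both of cell types rich in immunoproteasome, had higher sums in peritumoral than in untreated hepatocytes. Within the groups the order of libraries differed. Untreated library 3 had the highest shares of its group and the lowest sums of both marker sets. Peritumoral library 3 had the highest shares of its group and the highest sums of both sets. Antigen-presenting-cell markers summed to 327, 304 and 795 RPM in peritumoral hepatocytes, against 132, 107 and 85.5 RPM in untreated hepatocytes, and lymphocyte markers to 30.0, 44.5 and 93.0 RPM, against 11.4, 10.98 and 9.92 RPM. Their part in the result was not tested.

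Of the 5 activator genes 2 were lower. Psme1, a subunit of the interferon-inducible PA28 cap, had 88.7, 77.0 and 103 CPM in peritumoral hepatocytes, against 80.8, 87.0 and 97.2 CPM in untreated hepatocytes, and the groups overlapped (log2 fold change 0.02 ± 0.17, edgeR, adjusted p = 0.943). Psme2, its partner, did not pass either, at -0.04 ± 0.21 (edgeR, adjusted p = 0.903), nor did Psme2b. Psme4, which encodes the nuclear activator PA200, had 133, 95.0 and 134 CPM in peritumoral hepatocytes, against 243, 218 and 228 CPM in untreated hepatocytes. It was lower without overlap, by -0.93 ± 0.20 (edgeR, adjusted p = 0.0181), and was the 1 proteasome gene still called lower with library totals. Psme3, the nuclear PA28-gamma, was lower by -0.58 ± 0.15 (edgeR, adjusted p = 0.0305), and Psmf1, the inhibitor PI31, did not pass, at -0.32 ± 0.15 (adjusted p = 0.148).

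Of the 7 assembly chaperone genes 3 were lower. Psmd9, a chaperone of the ATPase ring, had 25.6, 31.7 and 25.7 CPM in peritumoral hepatocytes, against 53.1, 48.6 and 48.5 CPM in untreated hepatocytes. The groups did not overlap, and the log2 fold change of -0.86 ± 0.15 had the lowest adjusted p of the 48 genes (edgeR, 0.0101). Psmd5, at -0.73 ± 0.16 (edgeR, adjusted p = 0.0194), and Psmd10, which encodes gankyrin, both chaperones of the same ring, were the other 2. Psmg1 to Psmg4, which guide assembly of the core, did not pass, at -0.63 to -0.35.

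Genes that work with the proteasome were taken from lists. Of 22 genes for associated proteins 7, or 31.8%, were lower, against 9.85% of all genes, and 1 was higher. Vcp, the ATPase that extracts ubiquitin-tagged proteins, was lower by -1.25 ± 0.24, and Rad23b, a shuttle for ubiquitin chains, by -0.83 ± 0.19 (edgeR, adjusted p = 0.0131 and 0.0228). Zfand5, which encodes a proteasome-binding zinc finger protein, was higher by 0.98 ± 0.19 (edgeR, adjusted p = 0.0137). Of 5 ubiquitin and E1 genes tested 1, Uba1, the main ubiquitin-activating enzyme, was lower, by -0.81 ± 0.22 (edgeR, adjusted p = 0.0336).

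Genes of the interferon response and of antigen presentation were counted beside them. Of 23 interferon-response genes 4, or 17.4%, were higher and none lower, a share near the 18.7% of all genes called higher. They included Irf1, a transcription factor of the interferon response, at 1.90 ± 0.35, and Irf8, its myeloid relative, at 1.94 ± 0.34 (edgeR, adjusted p = 0.0115 and 0.0101). Of 12 genes for MHC class I and its peptide loading none was higher and 2 chaperones were lower, Calr, at -1.07 ± 0.32, and Pdia3, at -1.09 ± 0.31 (edgeR, adjusted p = 0.0485 and 0.0414). Among 10 NRF2 target genes 1 was higher and 2 were lower. Hmox1, the haem-degrading enzyme that macrophages also express, was higher by 2.75 ± 0.24 (edgeR, adjusted p = 0.00320). Srxn1, a peroxiredoxin repair enzyme, was lower by -1.82 ± 0.36, and Gclc by -1.42 ± 0.32 (edgeR, adjusted p = 0.0138 and 0.0212).

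**Figure D4:**
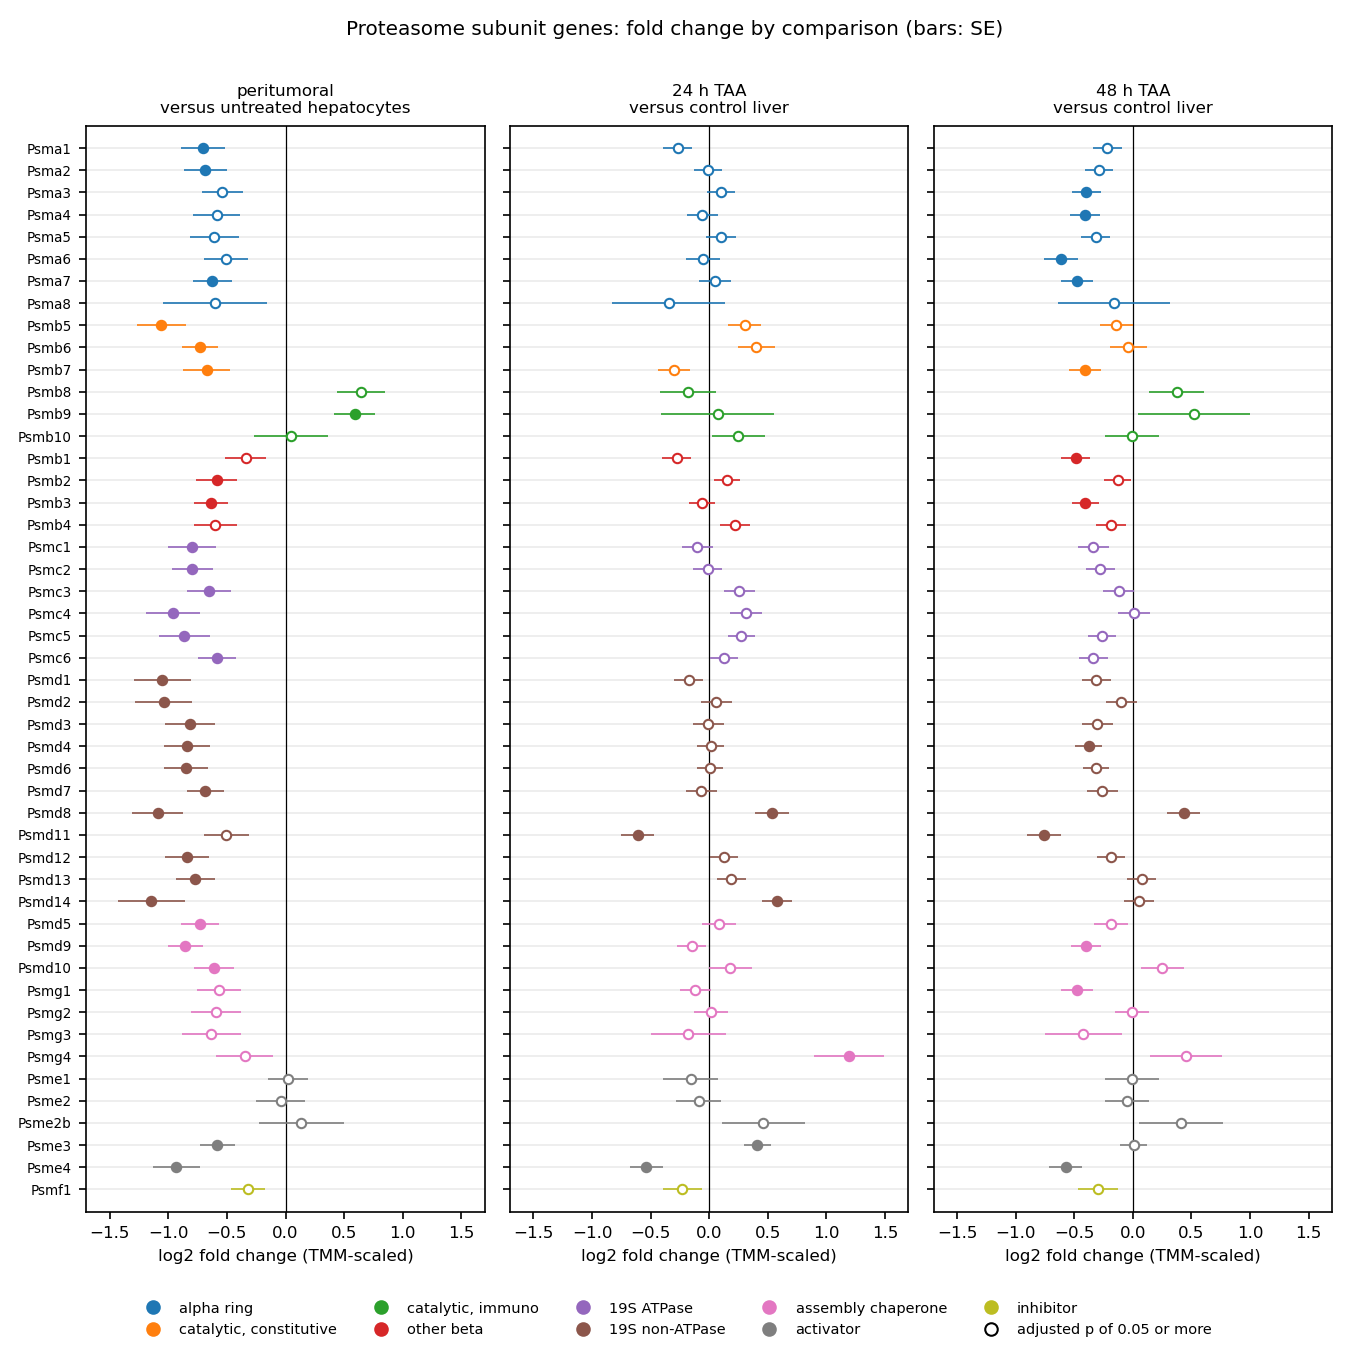
Log2 fold change (TMM-scaled, with SE as bars) of each proteasome gene in the 3 comparisons with an untreated or control group; filled points passed an adjusted p of 0.05 and colours are classes. In the left panel 29 filled points lie below 0 and 1, Psmb9, above; in the middle panel 4 lie above and 2 below, and in the right panel 1 above and 12 below.

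At 24 h after thioacetamide few proteasome genes differed from control livers relative to other genes. Of the 48, 4 were higher and 2 lower with TMM scaling, where 21.1% and 20.7% of the 13497 genes tested were called in those directions and 41.7% in either. Of the 48 genes 7 had an unadjusted p under 0.05, where the share of all genes was not counted. The 24 h libraries lay above both control libraries for 16 genes and below them for 7, against 38.3% and 35.8% of all genes. The median log2 fold change was 0.01 for the 48 genes and 0.02 for all genes. Scaling matters in these livers, because control libraries had TMM factors of 0.757 and 0.750 and thioacetamide libraries between 1.06 and 1.26. With library totals alone the median of all genes moved to 0.53 and that of the proteasome genes to 0.53. Then 32 of the 48 genes were called higher (66.7%) and none lower, against 45.4% and 9.05% of all genes. The directions below are therefore relative to other genes.

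The 4 higher genes were Psmg4, Psmd14, Psmd8 and Psme3. Psmg4, a chaperone of the alpha ring, had 7.42 and 6.12 CPM at 24 h, against 3.51 and 2.41 CPM in control livers. The groups did not overlap, and the log2 fold change was 1.19 ± 0.30 (edgeR, adjusted p = 0.0196). Psmd14 had 73.0 and 63.9 CPM at 24 h, against 45.3 and 46.2 CPM in controls, and Psmd8 had 130 and 157 CPM, against 99.7 and 98.03 CPM. Both were higher without overlap, by 0.58 ± 0.13 and 0.54 ± 0.14 (edgeR, adjusted p = 0.0123 and 0.0228). Psme3 was higher by 0.41 ± 0.12 (edgeR, adjusted p = 0.0299), a call lost when any 1 of the 6 liver libraries was left out.

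The lower genes at 24 h were Psmd11 and Psme4. Psmd11 had 84.6 and 101 CPM at 24 h, against 134 and 149 CPM in controls, and Psme4 had 104 and 117 CPM, against 153 and 166 CPM. Neither overlapped, and the log2 fold changes were -0.61 ± 0.14 and -0.54 ± 0.14 (edgeR, adjusted p = 0.0147 and 0.0210). Both calls were lost without 24 h library 1 or control library 2, and with library totals the values were -0.10 and -0.02. No alpha, other beta or ATPase gene passed. The smallest p of those classes belonged to Psma1, at -0.27 ± 0.12, Psmb1, at -0.28 ± 0.12, and Psmc4, at 0.31 ± 0.13 (edgeR, adjusted p = 0.120, 0.116 and 0.102).

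At 48 h 12 of the 48 genes were lower and 1 was higher relative to control livers, where 24% and 25.1% of all genes tested were called in those directions and 49% in either. The share of lower genes therefore lay near the background. The median log2 fold change was -0.24 for the 48 genes, against -0.03 for all genes. With library totals the medians were 0.47 and 0.68, and 31 of the 48 genes were called higher (64.6%) and none lower, against 56.6% and 7.22% of all genes, so that every direction here is relative to the bulk of genes. The 48 h libraries lay below both control libraries for 30 genes and above them for 3, against 38.9% and 37.5% of all genes. Leaving out a library leaves 1 in its group, so only medians are given. Without 48 h library 1 or 2 or control library 1 or 2 those of the 48 genes were -0.265, -0.179, -0.239 and -0.344. Those of all genes were then -0.011, -0.0466, -0.0392 and -0.0335. The catalytic gene Psmb7 lost its call in 14 of 15 alternatives.

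Of the 12 lower genes at 48 h 7 belonged to the core. In the alpha ring Psma3, Psma4, Psma6 and Psma7 were lower. Psma6 had 62.9 and 51.9 CPM at 48 h, against 88.1 and 87.7 CPM in controls, without overlap (log2 fold change -0.62 ± 0.14, edgeR, adjusted p = 0.0120), and Psma7 was lower by -0.48 ± 0.14 (adjusted p = 0.0260). Among the beta genes Psmb1, Psmb3 and the catalytic Psmb7 were lower. Psmb1 had 100 and 95.3 CPM at 48 h, against 144 and 131 CPM in controls (log2 fold change -0.49 ± 0.13, edgeR, adjusted p = 0.0167). None of the 6 ATPase genes passed, with Psmc6 nearest, at -0.34 ± 0.12 (edgeR, adjusted p = 0.0539).

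Among other classes at 48 h, Psmd11 had 85.7 and 81.9 CPM, against 134 and 149 CPM in control livers. It was lower without overlap, by -0.76 ± 0.14 (edgeR, adjusted p = 0.00502), and its value with library totals was -0.04. Psme4 had 113 and 102 CPM at 48 h, against 153 and 166 CPM in controls (log2 fold change -0.57 ± 0.14, edgeR, adjusted p = 0.0131). Psmd4, the ubiquitin receptor of the cap, and the chaperones Psmd9 and Psmg1 were also lower. Psmd8 was the 1 higher gene, with 133 and 134 CPM at 48 h, against 99.7 and 98.03 CPM in controls (log2 fold change 0.43 ± 0.14, edgeR, adjusted p = 0.0403).

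No immunoproteasome gene passed at either time with TMM scaling and all libraries. Psmb8 had 28.7 and 23.9 CPM at 24 h and 41.4 and 35.9 CPM at 48 h, against 37.0 and 22.6 CPM in control livers. Psmb9 had 14.6 and 11.3 CPM at 24 h and 20.9 and 14.5 CPM at 48 h, against 18.8 and 5.81 CPM in controls. The spread of the 2 control libraries covered or nearly covered the treated values of both genes. The log2 fold changes were -0.18 ± 0.24 and 0.07 ± 0.48 at 24 h and 0.37 ± 0.23 and 0.52 ± 0.48 at 48 h (edgeR, adjusted p = 0.570, 0.917, 0.225 and 0.402). Without control library 1, which was the higher control, Psmb9 was called higher at both times and Psmb8 at 48 h, and with library totals Psmb8 was called higher at 48 h. Psmb10 had 24.0 and 18.4 CPM at 24 h and 18.3 and 17.2 CPM at 48 h, against 21.5 and 14.2 CPM in controls, overlapping at both times. Its log2 fold changes of 0.25 ± 0.23 and -0.01 ± 0.23 did not pass (edgeR, adjusted p = 0.405 and 0.984), but with library totals it was called higher at both, at 0.76 and 0.70. Macrophage markers were called higher for 10 of 14 at 24 h and 14 of 14 at 48 h, and their part in these values was not tested. Psme1 and Psme2 had fold changes between -0.16 and -0.01 on the log2 scale at both times, and none passed. With library totals both were called higher at 48 h, at 0.70 and 0.66 (edgeR, adjusted p = 0.0364 and 0.0237).

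The ratios within libraries were taken for the livers as well. The log2 ratio of Psmb8 to Psmb5 was 0.52 and 0.20 at 24 h and 1.43 and 1.29 at 48 h, against 1.08 and 0.54 in control livers, so the 24 h libraries lay below both controls and the 48 h libraries above them. That of Psmb9 to Psmb6 overlapped the controls at both times. For Psmb10 to Psmb7 it was -1.91 and -2.17 at 24 h and -2.18 and -2.18 at 48 h, against -2.43 and -2.78 in controls, with treated libraries above. Exact two-sided permutation p-values were 0.333 where groups did not overlap, the smallest that 2 against 2 libraries can give. Immunoproteasome genes made up 15.6% and 13.9% of catalytic transcripts per length at 24 h and 21.2% and 20.2% at 48 h, against 18.1% and 12.7% in control livers. Both times share the same control libraries, so they are not independent.

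Between the times, 48 h against 24 h, 1 proteasome gene was called lower and none higher by edgeR, where 2.53% of all genes were lower, 5.02% higher and 7.55% called in either direction. Of the 48 genes 21 had an unadjusted p under 0.05, a threshold at which the share of all genes was not counted. The gene called was Psmc5, an ATPase, with 62.9 and 58.8 CPM at 48 h, against 91.3 and 85.2 CPM at 24 h (log2 fold change -0.54 ± 0.12, edgeR, adjusted p = 0.0450). The call was lost without any 1 of the 4 thioacetamide libraries, each of which leaves 1 library in its group. Over the fits without 1 liver library the log2 fold change of Psmc5 ran from -0.62 to -0.49. DESeq2 called 6 lower, where 3.99% of all genes were lower. For 35 of the 48 genes both 48 h libraries lay below both 24 h libraries, where the share over all genes was 30%.

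Interferon, which is known to induce the immunoproteasome genes, was followed through 23 response genes. Of these 17 were higher at 24 h and 17 at 48 h relative to control livers, 73.9% at each time, against 21.1% and 25.1% of all genes. Cxcl10, an interferon-induced chemokine, was higher by 5.20 ± 0.20 at 24 h and 3.10 ± 0.19 at 48 h (edgeR, adjusted p = 0.000117 and 0.000168). Tap1, the peptide transporter gene that neighbours Psmb9 and overlaps its exons on the opposite strand over 5.79% of their length, was higher by 1.11 ± 0.25 and 1.01 ± 0.25 (edgeR, adjusted p = 0.0139 and 0.0160), while Psmb9 itself did not pass. B2m, the light chain of MHC class I, was lower relative to other genes, though not with library totals, by -0.98 ± 0.18 and -1.15 ± 0.18 (edgeR, adjusted p = 0.00591 and 0.00238). Of the 12 MHC class I genes 2 were higher and 2 lower at 24 h, and 2 higher and 4 lower at 48 h.

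Of the 22 genes for associated proteins, 13.6% were higher and 22.7% lower at 24 h (3 and 5 genes), against 21.1% and 20.7% of all genes, so the lower share lay near the background. At 48 h 9.09% were higher and 36.4% lower (2 and 8 genes), against 25.1% and 24% of all genes. Nfe2l1 was lower by -0.83 ± 0.15 at 24 h (edgeR, adjusted p = 0.00654). Ddi2, the protease that cleaves its product into the active form, was lower by -1.11 ± 0.21 at 24 h and -1.13 ± 0.21 at 48 h (edgeR, adjusted p = 0.00690 and 0.00470). Ngly1, which removes sugars from that product and was named here after its values were seen for 24 h, was lower by -0.60 ± 0.12 and -0.75 ± 0.13 (edgeR, adjusted p = 0.00984 and 0.00320). With library totals the 24 h values were -0.32 for Nfe2l1, -0.59 for Ddi2 and -0.09 for Ngly1, and that of Ddi2 alone passed. Zfand2a, a heat-shock-inducible proteasome-binding protein, was higher by 1.75 ± 0.22 and 1.65 ± 0.22 (edgeR, adjusted p = 0.00146 and 0.00121). Of 10 NRF2 targets 5 were higher and 2 lower at 24 h, and 4 higher and 2 lower at 48 h.

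The difference between the responses was tested in a fit of all 12 libraries, each response taken against the untreated or control group of its own stock. The peritumoral response was lower than the 24 h response for 24 of the 48 genes and higher for none, where 11.9% of 14615 genes were lower, 8.85% higher and 20.7% called in either direction. These were 5 of 6 ATPase genes, 8 of 11 non-ATPase genes, 2 of 3 constitutive catalytic genes, 3 of 4 other beta genes, 1 of 8 alpha genes, 4 of 7 chaperones and 1 of 5 activators. None of the immunoproteasome genes passed, at 0.73 ± 0.34 for Psmb8, 0.42 ± 0.55 for Psmb9 and -0.30 ± 0.48 for Psmb10 (edgeR, adjusted p = 0.154, 0.620 and 0.691). The number was 14 without peritumoral library 3 and 8 and 11 without untreated library 1 or 2, where 9.71%, 5.9% and 6.86% of all genes were lower. Leaving out 24 h library 1 or 2 or control library 1 or 2 leaves 1 library in the group. The medians of the 48 genes were then -0.758, -0.879, -0.802 and -0.713, against 0.0485, 0.0491, 0.0435 and 0.0731 for all genes. Against the 48 h response 4 genes were lower, Psmb5, Psmd8, Psmd13 and Psmd10, where 8.16% of genes were lower, 6.4% higher and 14.6% called in either direction. That number was 21 without untreated library 3 and 8 and 7 without peritumoral library 1 or 2, where 14.6%, 7.59% and 12.6% of all genes were lower. It was 1 without peritumoral library 3, untreated library 1 or untreated library 2, where 6.72%, 2.31% and 2.93% of all genes were. Leaving out a liver library leaves 1 in its group. Over those fits the medians of the 48 genes ran from -0.529 to -0.442, against 0.000853 to 0.0425 for all genes. Stock, preparation and number of libraries differ between the experiments, and their part in these differences cannot be told apart from that of the treatments.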

How the data were processed

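Members and gene lists were chosen with earlier results of these data known. Per the submitters' processing notes, the tools were STAR and DESeq2 and the build mm10 (GRCm38). No source used here gives the annotation or the use of strand in counting. The deposited read counts per gene are raw whole numbers (41128 genes). The authors' deposited RPM table holds 17311 genes, and 100% of its values came out as whole reads within 0.01 counts. Tests used those counts with edgeR 4.0.16 in R 4.3.3: TMM factors, a minimum count of 10 and total of 15, the quasi-likelihood F test and Benjamini-Hochberg adjustment over all genes. Hepatocyte and liver libraries were fitted apart, and all 12 together for differences between responses. Standard errors were derived from the log2 fold change and F. Alternatives used DESeq2 1.42.0, limma 3.58.1 on log2(RPM + 0.5) or log2(RPM + 0.1), other scalings and filters, a replicate block and leaving out each library. Ratios added 0.5 counts to each gene and used exact permutation tests. A level of 3 counts equals 0.162 to 0.311 RPM. Scripts were tested on simulated data. The rule for named genes took the catalytic genes, activators and inhibitor. It also took the 2 genes with the smallest p in each other class and genes called against their class. From each pathway list it took the 3 called genes with the smallest p, of which only some are printed. Other genes named with values were chosen after their values were seen.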

Additional observations from a re-analysis of the deposited data

Results flagged for a closer look

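The peritumoral response, against untreated hepatocytes, differed from the thioacetamide response, against control livers, in 16 cases among the named genes. The test was that of the difference itself, and no explanation was tested. Some named genes were picked for a small p in these same tests, so the number of cases carries no weight. Of the 48 genes 50% were lower against the 24 h response and 8.33% against the 48 h response. Among all genes tested 11.9% and 8.16% were lower, so the share against the 48 h response lay near the background. All 16 values are log2 differences, peritumoral minus thioacetamide response, with an adjusted p under 0.05 by edgeR. Against the 24 h response the ATPase genes Psmc4 and Psmc5 differed by -1.39 and -1.26, and the lid genes Psmd8 and Psmd14 by -1.74 and -1.85. The catalytic genes Psmb5 and Psmb6 differed by -1.48 and -1.24, the other core genes Psma7, Psmb3 and Psmb4 by -0.79, -0.68 and -0.93. The chaperone genes Psmd9 and Psmg4 differed by -0.82 and -1.65, and the activator gene Psme3 by -1.11. Against the 48 h response Psmb5 differed by -0.995, Psmd8 by -1.60, Psmd13 by -0.92 and Psmd10 by -0.94. Both sets share the peritumoral, untreated and control libraries. No group had 4 or more libraries, so single libraries were not tested for standing apart.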

How the results depend on the processing

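Scaling decided most calls in the livers. With library totals alone 32 proteasome genes were called higher and 0 lower at 24 h, and 31 higher and 0 lower at 48 h, where 45.4% and 56.6% of all genes were called higher. Limma on RPM, which has no TMM factor, gave 30 higher and 0 lower at 24 h with either pseudocount. At 48 h it gave 32 (pseudocount 0.5) or 31 (0.1) higher and 0 lower. Of all genes it called 34% (0.5) or 35.1% (0.1) higher at 24 h, and 46.6% at 48 h with either. At 48 h DESeq2 called 7 lower, no count filter 5 lower and 0 higher, and a fit of all 12 libraries 1 lower and 0 higher. In the same fits 20.8%, 15.1% and 11.2% of all genes were lower. At 24 h the fit of all 12 libraries called 2 higher and 0 lower, against 13.5% and 7.97% of all genes. For 48 h against 24 h, DESeq2 called 6 lower and no count filter 4, where 3.99% and 3.33% of all genes were lower. RLE factors, library totals, limma at 0.5 and 0.1, the replicate block and the fit of all 12 libraries called 0. Of all genes 2.18%, 1.44%, 0.387%, 0%, 2.22% and 0.185% were lower in these fits, in the same order. In peritumoral hepatocytes library totals and limma with either pseudocount called 1 lower and 2 higher. Of all genes library totals and limma at 0.5 and 0.1 called 1.35%, 0.809% and 0.965% lower and 18.7%, 12.6% and 15.5% higher. DESeq2 and a minimum count of 50 called 2 higher, where 21.5% and 15.4% of all genes were. No count filter called 0 higher, against 12.6% of all genes. For the peritumoral response minus the 48 h response the number lower was 14 with library totals, 9 with DESeq2 and 2 with no count filter. It was 11 and 12 with limma at pseudocounts 0.5 and 0.1. Of all genes 12.7%, 11.3%, 4.34%, 10.1% and 10.9% were lower in these fits, in the same order. The causes were not tested.

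Directions that turned at 48 h are listed where the main or the alternative value passed. Values are with library totals, then limma with pseudocounts 0.5 and 0.1. Psmb5 was at 0.57, 0.55 and 0.57, Psmb6 at 0.67, 0.67 and 0.67, and Psmb7 at 0.31, 0.31 and 0.31. Psma6 was at 0.099, 0.0884 and 0.0888, Psma7 at 0.24, 0.23 and 0.23, Psmb1 at 0.22, 0.22 and 0.22, and Psmb3 at 0.31, 0.30 and 0.31. Psmc6 was at 0.38, 0.37 and 0.37, Psmd4 at 0.34, 0.33 and 0.33, and Psmd9 at 0.31, 0.30 and 0.31. Psmg1 was at 0.23, 0.23 and 0.23, Psme4 at 0.14, 0.13 and 0.14, and Erap1, a peptide trimming enzyme, at 0.12, 0.11 and 0.11. Psme2 was at 0.66 with library totals and 0.67 with limma at 0.5, and Psmb10 and Psme1 at 0.70 and 0.70 with library totals. These 4 values passed, as did all of Psmb5, Psmb6 and Psmc6. Psmb3 and Psmd4, called lower with TMM scaling, passed as higher with limma at both pseudocounts. The other values listed did not pass.

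Leaving out each hepatocyte library in turn gave 0 to 2 higher and 0 to 30 lower genes in peritumoral hepatocytes. Of all genes 7.46% to 18.7% were higher and 0.372% to 9.55% lower in the same fits. For the peritumoral response minus the 24 h and 48 h responses it gave 8 to 31 and 1 to 21 lower. Of all genes 5.9% to 17% and 2.31% to 14.6% were lower in those fits. Leaving out a liver library leaves 1 in its group, so only medians are given. For the 48 genes they ran from -0.0436 to 0.117 at 24 h, -0.344 to -0.179 at 48 h and -0.345 to -0.215 for 48 h against 24 h. For all genes they ran from 0.0157 to 0.0459, -0.0543 to -0.011 and -0.014 to 0.0102. The Psmb9 to Psmb6 difference at 24 h ran from -0.81 to 0.58, turning positive without control library 1.

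Whether the shared replicate numbers pair the libraries could not be settled. Deviations of same-numbered libraries from their group means correlated at -0.24, 0.19 and 0.11 in hepatocytes, and those of differently numbered libraries at -0.26 to 0.26. Such deviations sum to 0 within a group, which constrains these values. With the replicate block 18 genes were lower and 0 higher in peritumoral hepatocytes, against 5.17% and 16.3% of all genes. At 24 h 3 were higher and 2 lower, against 20.4% and 19.5% of all genes. At 48 h 9 were lower and 0 higher, against 22.9% and 24.5%. For the peritumoral response minus the 24 h and 48 h responses 21 and 1 were lower, against 10.1% and 6.49%. With 2 or 3 libraries a group, spread between libraries limits all calls. Over single genes, alternatives other than leaving out a library left the call unchanged in 1174 cases, lost it in 180 and gained it in 55. In 43 the direction turned where the main or the alternative value passed. Turns where neither value passed are counted among the 1174.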
